A study of Mus musculus with 15 samples.

Results

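A set of 10 genes that T cell receptor (TCR) signals induce was followed across the CD8+ T cells of this study: the nuclear receptors Nr4a1, Nr4a2 and Nr4a3, the zinc finger factors Egr1, Egr2 and Egr3, the factors Irf4 and Tox, the phosphatase gene Dusp2 and the immediate early gene Ier2. These 10 were taken by name from 55536 annotated genes in the gene count matrix by a rule that uses no measured value, although the list was drawn up with earlier results of these data known, and all 10 passed the filter on low counts. The cells were CD8+ T cells from OT-I mice, which carry a transgenic receptor for an ovalbumin peptide, on the C57BL/6J background, and the study's methods name OT-I mice lacking Rag1 or Rag2. Naive cells (5 libraries) came from OT-I mice without transfer. Ag cells (5 libraries) had been moved into recipient mice that received the SIINFEKL peptide with a rat IgG control antibody. Ag+Costim cells (5 libraries) had met the same peptide together with agonist antibodies to OX40 and 4-1BB, which are costimulatory receptors. The labels place the transferred cells at day 4, and the study's methods describe sorting of CD8+ Vα2+ Vβ5+ CD45.1+ cells from spleen and lymph nodes about that time. All cells thus shared 1 receptor specificity, and the Naive cells differed from the other groups both in antigen and in transfer.

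The NR4A receptors, EGR factors and IRF4 are switched on within minutes to hours of TCR signalling, and their amount rises with the strength of the signal. Nr4a1 is widely used as a reporter of recent receptor engagement. EGR2, EGR3, the NR4A receptors and TOX are known for restraining or reshaping T cell responses, whereas IRF4 drives metabolic and clonal expansion of CD8+ T cells. DUSP2 is a nuclear phosphatase that switches off MAP kinases.

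The promoters of the induced genes are shown first because NR4A and EGR genes respond to CREB, serum response factor and each other's products. Entries of the RefSeq promoter table (GRCm38.p6) were used for 6 of the 10 genes. The stretches below lie upstream of the start site and outside every annotated exon, and they read 5′ to 3′ on the gene's strand. Capitals mark the CRE half-site TGACG or its complement CGTCA, the EGR site GCGNGGGCG on either strand, and the CArG box bound by serum response factor.
Nr4a1, chr15:101266596-101266845, plus strand: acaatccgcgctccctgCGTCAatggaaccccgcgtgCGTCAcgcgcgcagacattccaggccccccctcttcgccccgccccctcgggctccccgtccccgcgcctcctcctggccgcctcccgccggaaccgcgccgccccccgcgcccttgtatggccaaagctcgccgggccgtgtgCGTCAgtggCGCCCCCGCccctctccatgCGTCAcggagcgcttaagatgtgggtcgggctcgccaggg
Nr4a2, chr2:57124004-57124253, minus strand: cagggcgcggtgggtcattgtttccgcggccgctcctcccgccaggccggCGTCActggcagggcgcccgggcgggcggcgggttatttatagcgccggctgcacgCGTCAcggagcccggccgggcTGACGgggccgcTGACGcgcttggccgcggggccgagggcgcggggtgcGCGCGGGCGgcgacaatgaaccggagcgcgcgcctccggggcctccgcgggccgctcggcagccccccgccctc
Nr4a3, chr4:48045055-48045152, plus strand: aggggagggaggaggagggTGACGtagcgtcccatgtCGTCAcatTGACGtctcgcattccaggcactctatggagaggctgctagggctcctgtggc
Egr2, chr10:67537619-67537868, plus strand: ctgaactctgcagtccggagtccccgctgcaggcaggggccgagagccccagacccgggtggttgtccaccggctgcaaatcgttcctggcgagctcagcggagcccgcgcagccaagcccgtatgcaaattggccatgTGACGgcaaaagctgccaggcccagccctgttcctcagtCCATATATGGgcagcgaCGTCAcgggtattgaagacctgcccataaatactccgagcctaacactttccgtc
Dusp2, chr2:127335909-127336158, plus strand: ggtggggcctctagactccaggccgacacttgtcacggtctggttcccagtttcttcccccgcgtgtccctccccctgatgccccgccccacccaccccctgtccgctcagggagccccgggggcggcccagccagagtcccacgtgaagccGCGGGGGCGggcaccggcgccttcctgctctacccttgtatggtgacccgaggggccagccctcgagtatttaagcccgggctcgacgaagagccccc
The 250 bases before the start held 4 CRE half-sites each in Nr4a1, Nr4a2 and Nr4a3 and 2 in the Egr2 window shown. Over the same 250 bases, 17.77% of all 32851 promoters held at least 1. An EGR site was present once each in Nr4a1, Nr4a2 and Dusp2, against 4.697% of promoters, and a CArG box once in the Egr2 window shown, 1 of 5 that the table lists for Egr2, against 1.467%. The Irf4 window held none of these motifs. The Nr4a3 stretch stops where the annotated first exon begins, so 3 of its 4 half-sites are printed. The Nr4a1 stretch lies inside the gene's annotated span (chr15:101254269-101274795), since another transcript begins upstream. GC made up 74.4% of these 250 bases in Nr4a1, 80% in Nr4a2, 63.6% in Nr4a3, 61.6% in the Egr2 window shown and 70.4% in Dusp2. The median over all promoters was 52.4%, and the percentages of promoters with a motif were not matched for GC. A match describes the letters only.

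Total counts ran from 4865952 (Ag 3) to 25280667 (Naive 3). All 8 CD8 T cell markers were at 1 CPM (counts relative to the TMM-scaled library size) or more in every library. Ag 3 stood apart: 16.9% of its sequenced reads were counted, and its B cell, erythroid and platelet markers summed to 502 and 1321 CPM. Naive 5 stood apart as well, with 1025 CPM of myeloid markers against 14.7 in the lowest Naive library. All Naive libraries were sequenced on lane 3 and all Ag libraries on lane 2, with Ag+Costim 1 to 3 on lane 2 and Ag+Costim 4 and 5 on lane 3. Ag and Naive were thus never run side by side, and a fit with lane as a term compares these groups only through the Ag+Costim libraries. The recorded input amount, which has no stated unit, was 1.4 for Ag 2 and 1.8 for Ag 5 and at least 7 in all others. The libraries are labelled as separate samples, and p-values measure the spread between them.

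**Figure D1:**
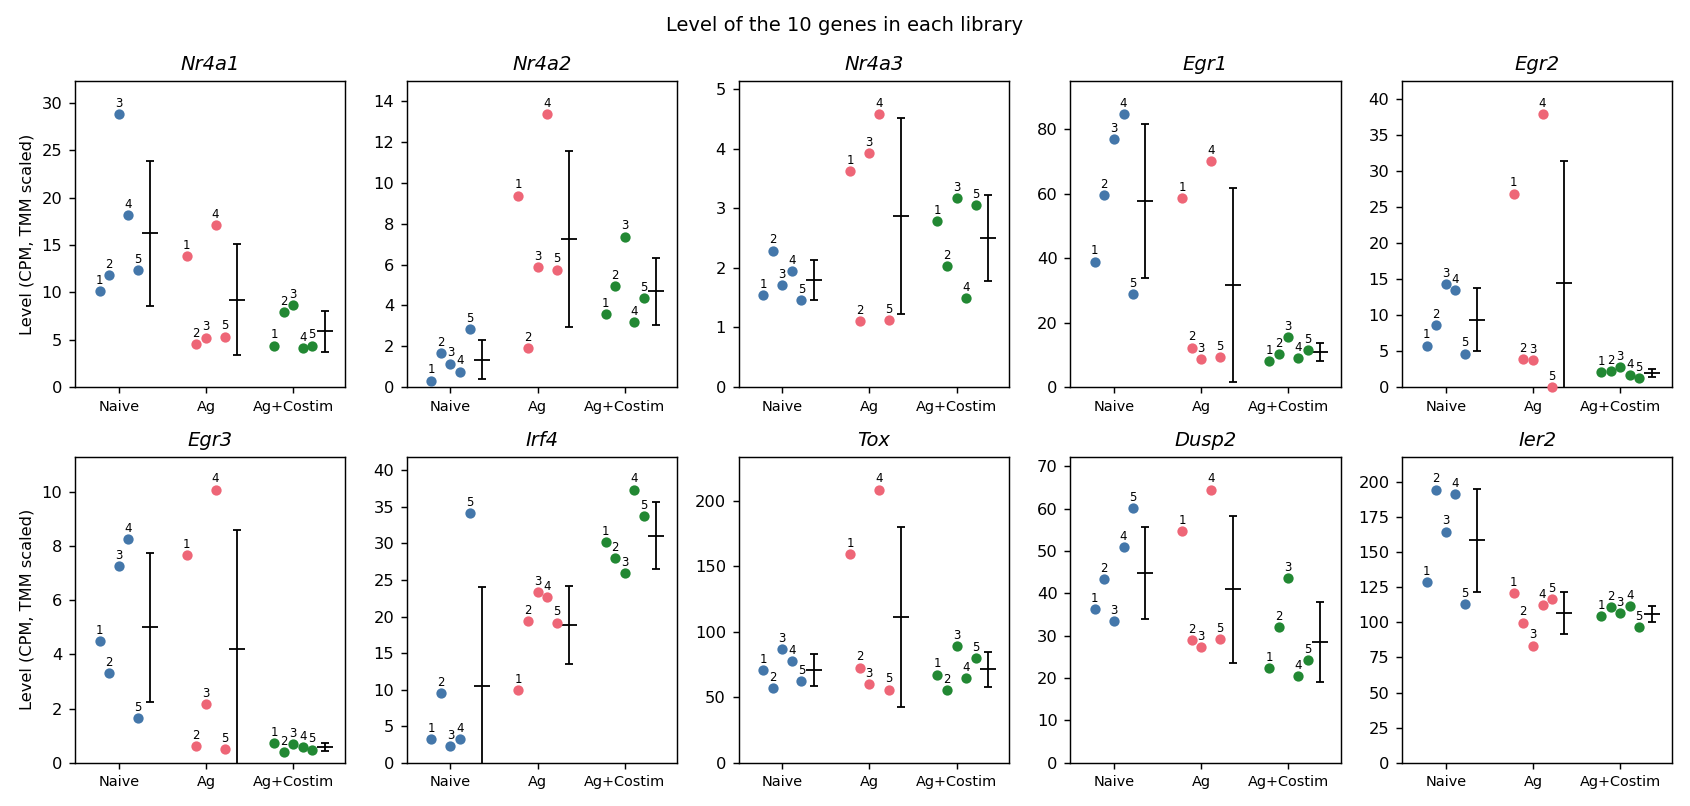
TMM-scaled CPM of the 10 genes (vertical axes from 0, each with its own scale) in Naive, Ag and Ag+Costim libraries; points are libraries with their replicate number, and black marks give the mean ± SD of 5 libraries, with bars cut at 0. Ag 1 and Ag 4 lay above Ag 2 and Ag 5 for every gene but Irf4 and Ier2, and Irf4 of Naive 5 was 34.2 CPM.

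Among the nuclear receptors, Nr4a1 was lower and Nr4a2 higher in Ag+Costim than in Naive cells, and neither pair of groups overlapped. Nr4a1 (ENSMUSG00000023034.7, GRCm38 chr15:101254269-101274795) measured 10.1, 11.8, 28.8, 18.1 and 12.4 CPM in Naive 1 to 5. In Ag 1 to 5 it measured 13.9, 4.55, 5.23, 17.1 and 5.32 CPM, and in Ag+Costim 1 to 5 it measured 4.37, 7.88, 8.64, 4.15 and 4.38 CPM. Every Ag+Costim library was thus below every Naive library, while Ag 1 and Ag 4 lay within the Naive range and Ag 2, 3 and 5 below it. The edgeR log2 fold change of Ag+Costim over Naive was -1.47 (SE 0.42, FDR 0.0172). It was not called without Naive 3 (FDR 0.0515) or without Ag+Costim 4 (FDR 0.0568), and within lane 3 it was -1.94 (FDR 0.0292). Ag over Naive was -0.81 (FDR 0.206) and Ag+Costim over Ag -0.66 (FDR 0.325), neither called. As elsewhere in these bulk libraries, fewer expressing cells and less RNA per cell cannot be told apart.

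Nr4a2 (ENSMUSG00000026826.13, chr2:57106830-57124003), the paralogue also known as Nurr1, measured 0.320, 1.66, 1.16, 0.764 and 2.86 CPM in Naive 1 to 5. It measured 9.38, 1.93, 5.88, 13.4 and 5.76 CPM in Ag 1 to 5 and 3.58, 4.96, 7.38, 3.18 and 4.38 CPM in Ag+Costim 1 to 5. The 5 Ag+Costim libraries and 4 of the 5 Ag libraries lay above every Naive library, with Ag 2 inside the Naive range. Nr4a2 rose in Ag over Naive by a log2 fold change of 2.43 (SE 0.55, FDR 0.0210) and in Ag+Costim over Naive by 1.80 (SE 0.54, FDR 0.0196). The first call was lost without Naive 1 (FDR 0.0555), Naive 3 (FDR 0.0667) or Naive 4 (FDR 0.0694), and the second without Naive 4 (FDR 0.0539) and within lane 3 (1.49, FDR 0.0943). Ag+Costim over Ag was -0.63 (FDR 0.436), not called. Beside these values, the 9 B cell markers summed to 31.1 to 33.4 CPM in Naive, 32.1 to 502 CPM in Ag and 28.4 to 52.5 CPM in Ag+Costim libraries, and 6 of the 8 tested were called higher in Ag than in Naive. The sums in Ag 1 to 5 were 185, 32.1, 502, 252.5 and 37.6 CPM, and the part of other cells in the Nr4a2 level was not tested.

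Nr4a3 (ENSMUSG00000028341.9, chr4:48045153-48086447), the third receptor, was low throughout and passed the test in no comparison. Its range was 1.46 to 2.29 CPM in Naive, 1.10 to 4.58 CPM in Ag and 1.49 to 3.16 CPM in Ag+Costim libraries, from 16 to 64 counts. Ag 1, 3 and 4 lay above and Ag 2 and Ag 5 below the whole Naive range.

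The make-up of the NR4A family differed between Naive cells and both antigen groups (stacked shares per library). Shares were computed per length, as count over transcript length, and do not depend on how libraries are scaled. Nr4a1 held 92.6, 85.8, 94.9, 93.3 and 82.4% of the summed NR4A level in Naive 1 to 5. It held 60.6, 70.8, 50.3, 58.7 and 54.2% in Ag 1 to 5, and 54.5, 65.0, 55.2, 59.4 and 48.8% in Ag+Costim 1 to 5. No Ag or Ag+Costim library reached the lowest Naive library, Naive 5. The parts of input amount and lane in these shares were not tested. The Nr4a1 share was 30.9 percentage points lower in Ag than in Naive (exact two-sided permutation p = 0.00794, adjusted p = 0.0286) and 33.2 points lower in Ag+Costim (exact permutation p = 0.00794, adjusted p = 0.0286). That p is the smallest that 5 against 5 libraries can give, and adjustment was over 18 tests.

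The Nr4a2 share was higher in both antigen groups. Nr4a2 held 5.61 ± 4.89% of the family level across Naive libraries, 33.0 ± 7.10% across Ag and 32.5 ± 3.69% across Ag+Costim libraries (SD, n = 5 each). The rise over Naive was 27.4 points in Ag and 26.9 points in Ag+Costim (exact permutation, adjusted p = 0.0286 for both). Nr4a3 gained 6.28 points in Ag+Costim over Naive (exact permutation, adjusted p = 0.0286), which became 0.0571 when any 1 Naive library was left out. With fewer libraries the exact test has fewer arrangements, so the lost call does not by itself show a smaller difference. The difference was 5.29 to 7.22 points when any 1 library was left out. Every Ag+Costim share of Nr4a3 lay above every Naive share. Between Ag+Costim and Ag the 3 shares differed by -2.35, -0.44 and 2.80 points for Nr4a1, Nr4a2 and Nr4a3, with exact permutation p from 0.198 to 0.913. Both comparisons with Naive use the same Naive libraries.

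**Figure D2:**
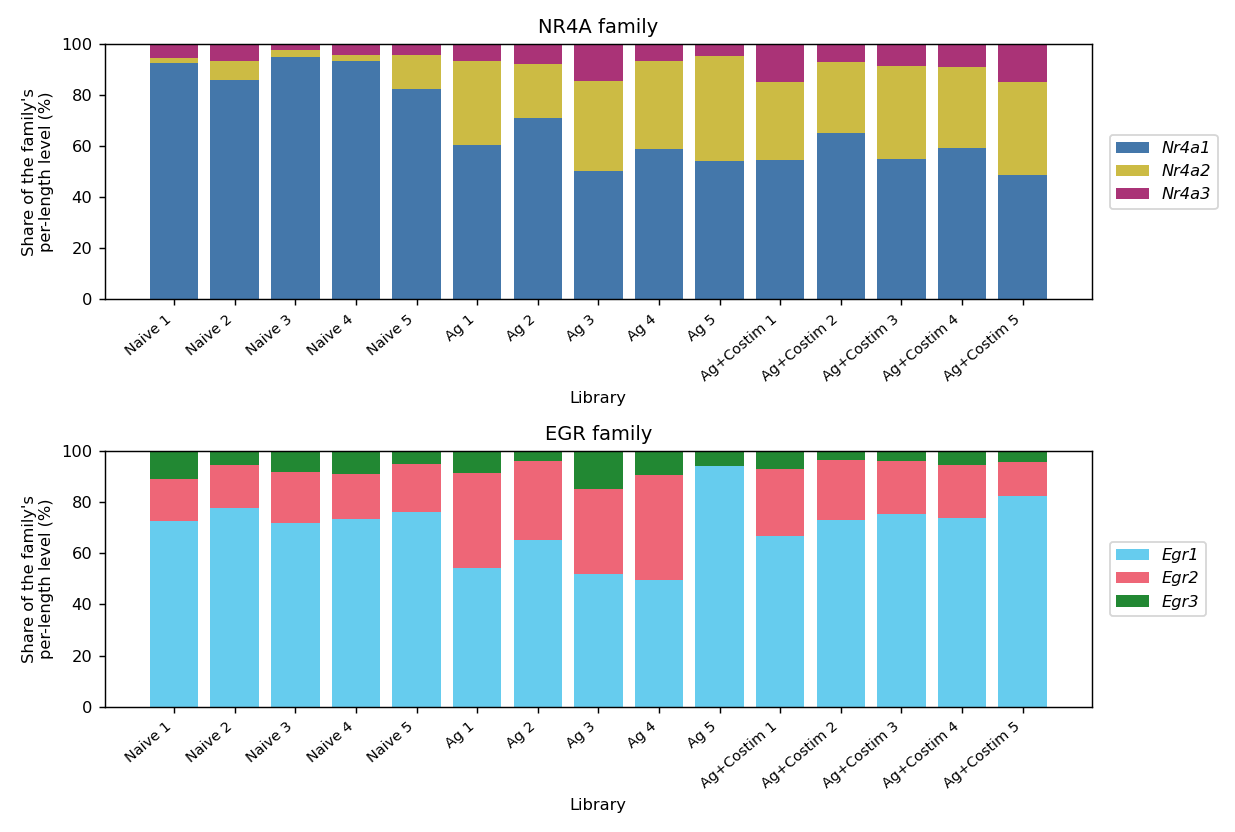
Share (%) of each gene in the summed per-length level of its family in the 15 libraries, NR4A above and EGR below, each bar adding to 100. Nr4a1 held 82.4 to 94.9% in Naive and 48.8 to 70.8% in the other libraries, and Egr2 was at 0 in Ag 5.

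Egr1, Egr2 and Egr3 were all lower in every Ag+Costim library than in every Naive library, and Egr1 and Egr3 passed the test. Egr1 (ENSMUSG00000038418.7, chr18:34859823-34864984), the most abundant of the family per length, measured 38.9, 59.5, 77.0, 84.8 and 28.9 CPM in Naive 1 to 5. It measured 58.7, 12.3, 8.71, 70.2 and 9.27 CPM in Ag 1 to 5, and 8.08, 10.2, 15.5, 9.08 and 11.4 CPM in Ag+Costim 1 to 5. Ag 1 and Ag 4 lay inside the Naive range, whereas Ag 2, 3 and 5 lay inside the Ag+Costim range of 8.08 to 15.5 CPM. Egr1 fell in Ag+Costim against Naive by 2.41 on the log2 scale (SE 0.58, FDR 0.00881), and within lane 3 the change was -2.50 (FDR 0.0243). Ag+Costim over Ag was -1.56 (SE 0.56, unadjusted p = 0.0146, FDR 0.109) by edgeR's quasi-likelihood test.

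Egr2 (ENSMUSG00000037868.15, chr10:67535475-67542188), which restrains T cell activation and marks anergic cells, spread most widely within Ag. It measured 5.76, 8.60, 14.3, 13.5 and 4.65 CPM in Naive 1 to 5, and 2.05, 2.19, 2.81, 1.69 and 1.25 CPM in Ag+Costim 1 to 5. In Ag 1 to 5 it measured 26.9, 3.86, 3.70, 37.9 and 0 CPM. Ag 1 and Ag 4 were above all other libraries of the study, and Ag 5 had 0 counts, where 3 counts would be 0.188 CPM. Ag+Costim over Naive was -2.23 (SE 0.93, FDR 0.0626), not called, although the groups did not overlap, and it was called within lane 3 (-2.67, FDR 0.0264). Ag+Costim over Ag was -2.86 (SE 0.95, FDR 0.0929).

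Egr3 (ENSMUSG00000033730.4, chr14:70077203-70082614), a close relative of Egr2, measured 4.48, 3.31, 7.27, 8.27 and 1.66 CPM in Naive 1 to 5. It measured 7.66, 0.620, 2.18, 10.1 and 0.501 CPM in Ag 1 to 5, and 0.729, 0.406, 0.703, 0.584 and 0.486 CPM in Ag+Costim 1 to 5. The Ag+Costim values rest on 5 to 11 counts a library. The libraries Ag 1 and Ag 4 were again within or above the Naive range, and Ag 2 and Ag 5 within the Ag+Costim range. Egr3 fell in Ag+Costim against Naive by 3.08 on the log2 scale (SE 0.76, FDR 0.0102), and within lane 3 the change was -3.22 (FDR 0.0277). Most Egr3 counts had been assigned to a single-exon transcript of 3876 bases annotated as a retained intron, which held 84.7 ± 25.4% (SD, n = 5) in Naive and all Egr3 counts in Ag+Costim libraries. In 1 Naive library it held 39.5%, the lowest share of all libraries.

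The make-up of the EGR family passed the test in no comparison. Egr1 held 74.4 ± 2.49% of the family level across Naive, 63.0 ± 18.4% across Ag and 74.2 ± 5.59% across Ag+Costim libraries (SD, n = 5). The calls depended on Ag 5, in which Egr2 was at 0. Without it, the Egr2 share was 17.6 points higher in Ag than in Naive and 14.6 points lower in Ag+Costim than in Ag (exact permutation, adjusted p = 0.0159 for each). The Egr1 share without Ag 5 was 19.2 points lower in Ag than in Naive, with the same adjusted p (exact permutation). Without Ag 2, the difference in Egr3 share, Ag+Costim vs Ag, passed the test (exact permutation, adjusted p = 0.0476).

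Of the other members, Irf4 was highest in Ag+Costim and Ier2 highest in Naive. Irf4 (ENSMUSG00000021356.10, chr13:30749226-30766976) measured 3.27, 9.54, 2.31, 3.20 and 34.2 CPM in Naive 1 to 5. It measured 9.99, 19.4, 23.3, 22.6 and 19.2 CPM in Ag 1 to 5, and 30.1, 28.0, 25.9, 37.4 and 33.7 CPM in Ag+Costim 1 to 5. Every Ag+Costim library was above every Ag library, and Naive 1 to 4 were below every Ag library, but Naive 5 lay within the Ag+Costim range. Irf4 rose in Ag+Costim over Naive by 1.57 on the log2 scale (SE 0.60, FDR 0.0467). Without Naive 5 this was 2.79 (FDR 0.000324) and Ag over Naive was 2.07 (FDR 0.00362), against 0.85 (FDR 0.336) with it. Leaving out any other single library of the comparison lost the Ag+Costim call (FDR 0.0645 to 0.102), and within lane 3 it was 1.79 (FDR 0.158). Ag+Costim over Ag was 0.72 (FDR 0.441).

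Naive 5 carried other values beside its Irf4 level. Its 11 inhibitory receptor genes summed to 428 CPM, against 86.8 CPM in the lowest Naive library and 557 CPM in the lowest Ag library. S100a8 and S100a9, which are neutrophil genes, stood at 433 and 407 CPM there, against at most 38.4 and 39.3 CPM in Naive 1 to 4. Their part in the Irf4 level was not tested.

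Ier2 (ENSMUSG00000053560.4, chr8:84661331-84662852), an immediate early nuclear protein gene, measured 129, 195, 165, 191 and 113 CPM in Naive 1 to 5. It measured 121, 99.9, 83.4, 112 and 116 CPM in Ag 1 to 5, and 104, 111, 107, 112 and 96.9 CPM in Ag+Costim 1 to 5. The Ag+Costim libraries were all below the lowest Naive library, and 2 Ag libraries, Ag 1 and Ag 5, overlapped Naive 5. Ier2 fell against Naive by 0.57 on the log2 scale in Ag (SE 0.15, FDR 0.0389) and by 0.58 in Ag+Costim (SE 0.15, FDR 0.0126). The Ag call was lost without Naive 1, 2, 3 or 4 (FDR 0.0589 to 0.119) or without Ag 2, 3 or 5 (FDR 0.0524 to 0.145), and the Ag+Costim call without Ag+Costim 4 (FDR 0.0637) and within lane 3 (-0.60, FDR 0.0878). The Ag+Costim to Ag difference was -0.01 (SE 0.15).

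Tox (ENSMUSG00000041272.11, chr4:6686353-6991557), a factor of exhausted and thymic T cells, passed the test in no comparison. It measured 70.5, 57.2, 87.0, 77.5 and 62.2 CPM in Naive 1 to 5 and 67.3, 55.8, 88.9, 64.6 and 79.7 CPM in Ag+Costim 1 to 5. In Ag 1 to 5 it measured 160, 72.6, 59.9, 209 and 55.9 CPM. Above all other libraries stood Ag 1 and Ag 4, and the remaining Ag libraries fell between the lowest and highest library of the other groups. Ag over Naive was 0.65 (SE 0.32, FDR 0.193) and Ag+Costim over Ag -0.65 (SE 0.32, FDR 0.216). An antisense gene, Gm11802, overlaps Tox and averaged 1.87 counts against 1221 for Tox. The leading Tox transcript held 96.9 ± 0.72% of Tox counts in Ag+Costim and 93.2 ± 3.01% in Naive libraries (SD, n = 5, exact permutation p = 0.0159, adjusted p = 0.286).

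Dusp2 (ENSMUSG00000027368.6, chr2:127336159-127338376) also passed no test. It measured 36.2, 43.4, 33.4, 50.9 and 60.1 CPM in Naive 1 to 5, 54.8, 29.0, 27.2, 64.5 and 29.2 CPM in Ag 1 to 5, and 22.3, 32.0, 43.6, 20.4 and 24.3 CPM in Ag+Costim 1 to 5. Of the Ag+Costim libraries, 4 lay below every Naive library. Ag+Costim over Naive was -0.65 (SE 0.29, FDR 0.0725). It was called without Ag+Costim 3 (-0.84, FDR 0.0400) and within lane 3 (-0.997, FDR 0.0289).

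**Figure D3:**
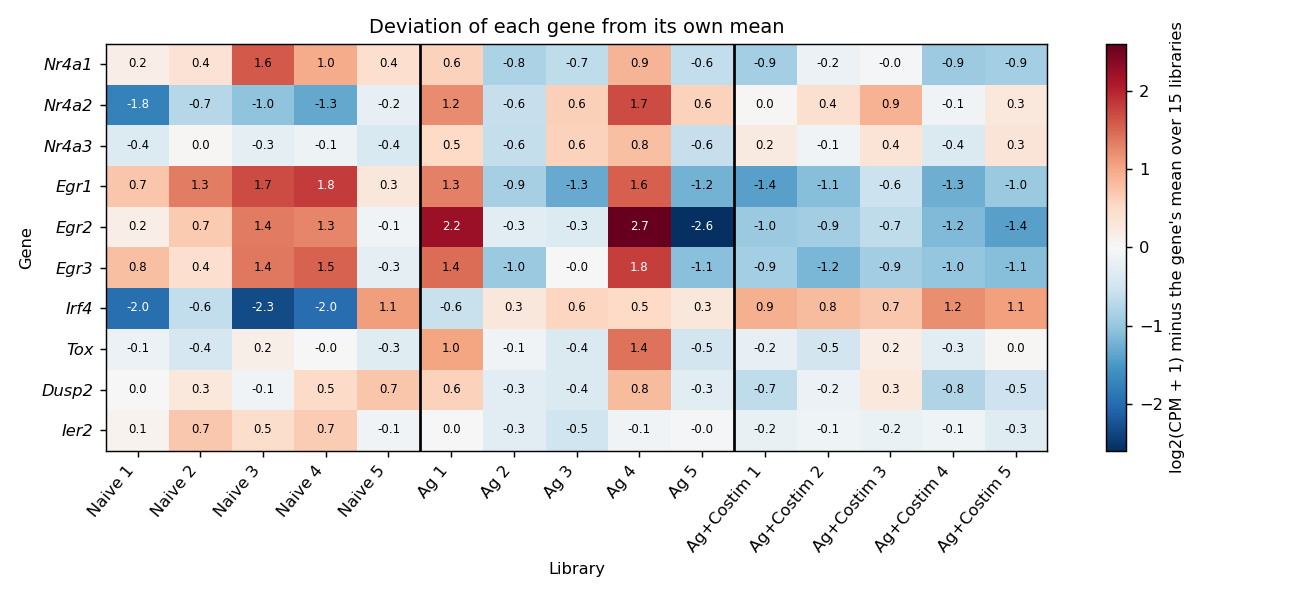
Colour and number give log2(CPM + 1) of each gene minus its own mean over the 15 libraries; rows are genes, columns libraries, and black lines separate the groups. Egr2 was 2.22 above its mean in Ag 1, 2.70 above it in Ag 4 and at -2.58 in Ag 5, and Irf4 was 1.09 above its mean in Naive 5.

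The Ag libraries spread more than those of the other groups for most members. The coefficient of variation over the 5 Ag libraries was 94.5% for Egr1, 117% for Egr2 and 104% for Egr3. Over the Ag+Costim libraries it was 26.4, 29.1 and 23.7% for the same genes. Ag 1 and Ag 4 were the highest Ag libraries for Nr4a1, Nr4a2, Egr1, Egr2, Egr3, Tox and Dusp2. This split was not confined to the members. Over all genes compared, chi-square per degree of freedom was 8.703 between Ag 1 and Ag 4 and 24.64 between Ag 2 and Ag 5. It was 171.1 between Ag 1 and Ag 2 and 249.4 between Ag 4 and Ag 5. Pairs with Ag 3 ran from 100.6 to 138.3. Ag 1 and Ag 4 had an input amount of 10, and Ag 2 and Ag 5, among the lowest, had 1.4 and 1.8. However, Ag 3, at 9.4, was also low for Egr1, Egr2, Tox and Dusp2. The heat shock and handling list, 10 chaperone genes, summed to 2151, 4620, 3572, 2091 and 5061 CPM in Ag 1 to 5. Its members differed widely in level, from a mean over Ag libraries of 1.187 CPM (Hspa1a) to 1412.8 CPM (Hsp90ab1). The list holds chaperone genes only, so its sum does not measure handling apart from chaperone levels. The lowest Ag sums of the list were those of Ag 1 and Ag 4, at the level of the lowest Naive library, 2045 CPM. The parts of input, handling and contents of the libraries in these levels were not tested.

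Compared across genes per length, Ier2 was the most abundant member in every group. In Naive cells the mean per-length level, in CPM per kb, ran from Ier2 (104 ± 24.1) over Dusp2 (28.6 ± 6.85), Tox (19.1 ± 3.28), Egr1 (12.9 ± 5.34), Nr4a1 (6.80 ± 3.01), Egr2 (3.17 ± 1.47), Irf4 (2.24 ± 2.92) and Egr3 (1.36 ± 0.741) to Nr4a2 (0.379 ± 0.274) and Nr4a3 (0.313 ± 0.0585), each with SD over 5 libraries. Of neighbours in this order, Egr2 and Irf4, Irf4 and Egr3, and Nr4a2 and Nr4a3 differed by less than the larger SD of the pair. In Ag+Costim cells Irf4 (6.62 ± 0.928) took the fourth place, above Egr1 (2.42 ± 0.638) and Nr4a1 (2.41 ± 0.901), and Egr3 (0.150 ± 0.0356) was last. Egr1 and Nr4a1 could not be ordered there, and Nr4a2 (1.39 ± 0.560) was above Egr2 (0.679 ± 0.197).

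**Figure D4:**
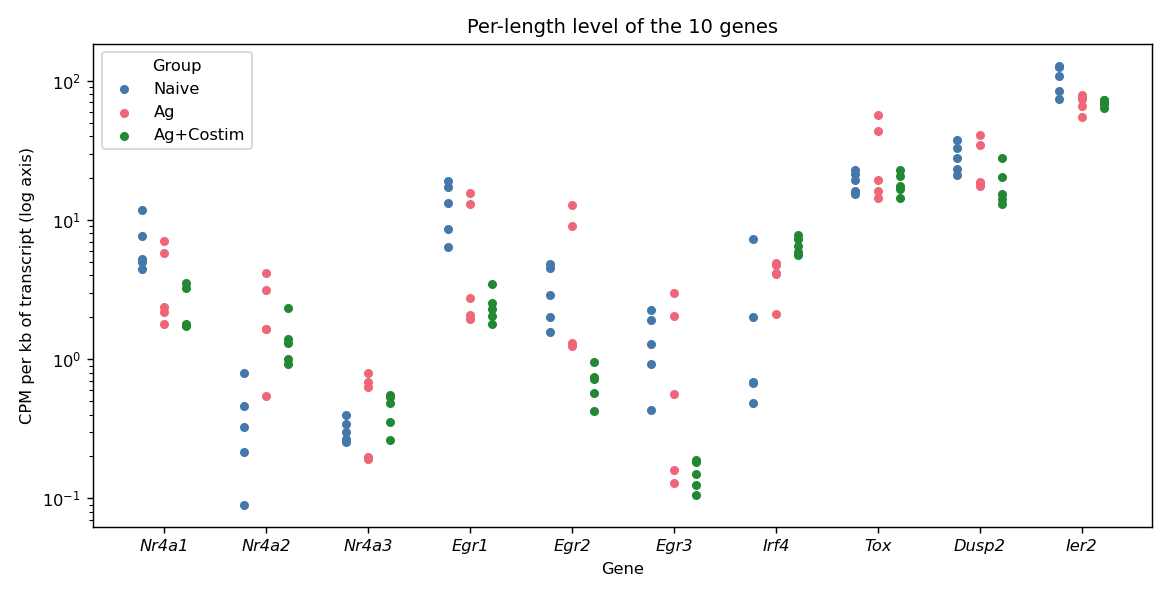
Per-length level of the 10 genes (CPM per kb of transcript, log axis) by group; each point is a library, and Egr2 in Ag 5, at 0, is not drawn. Irf4 was 5.63 to 7.85 in Ag+Costim, and Egr3 was 0.105 to 0.188 there.

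The calls of the members are given beside those of all genes. For Ag against Naive, edgeR's quasi-likelihood test with Benjamini-Hochberg adjustment over 17366 genes called 1 member higher (Nr4a2) and 1 lower (Ier2) at FDR 0.05. Of all genes, 3.05% were called higher and 3.66% lower. No member had groups that did not overlap, against 3.85% of all genes. The median log2 fold change was 0.25 over the members and 0.08 over all genes.

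For Ag+Costim against Naive, 2 members were called higher (Nr4a2, Irf4) and 4 lower (Nr4a1, Egr1, Egr3, Ier2), where 21% of all genes were called higher and 23.6% lower. Groups did not overlap for 6 members, those just named without Irf4 and with Egr2, against 45% of all genes. The median was -0.62 over the members and -0.08 over all genes. Scaling by library totals alone moved the median of all genes to -0.23. With the lane as a term, no member was called in any comparison, and 5.43% of all genes were in this one. The fold changes of the 6 members in that fit were -1.93 (Nr4a1), 1.48 (Nr4a2), -2.50 (Egr1), -3.20 (Egr3), 1.76 (Irf4) and -0.60 (Ier2), with larger SEs and FDR from 0.0603 to 0.117. For Ag against Naive, Nr4a2 was 1.94 (SE 0.92) and Ier2 -0.61 (SE 0.28) with the lane as a term, both at FDR 0.626. Within lane 3, 5 members were called lower (Nr4a1, Egr1, Egr2, Egr3, Dusp2) with 20.6% of all genes called lower.

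For Ag+Costim against Ag, the comparison of costimulation, 0 members were called by edgeR, which called 0.0288% of all genes higher and 0.00576% lower. Egr1, Egr2 and Egr3 had an unadjusted p under 0.05. Irf4 was the 1 member whose groups did not overlap, against 6.33% of all genes. DESeq2, the other count tool, called Egr1, Egr2 and Egr3 lower (FDR 0.0312, 0.0155 and 0.00547) with 15.8% of all genes lower. Voom with quality weights called 8 members with 57.5% of all genes, and log2 input amount as a term, added after seeing the data, called 6 lower with 26.1% of all genes lower and 44% in either direction. Without Ag 5, edgeR called Egr1, Egr2 and Egr3 lower (FDR 0.0365, 0.0199 and 0.0205) with 15.6% of all genes lower. Without Ag 2 it called Egr2 and Egr3 lower (FDR 0.0478 and 0.0296) with 9.47% of all genes lower. Within lane 2 the Egr3 difference was -2.75 (FDR 0.628) and neither a member nor any other gene was called.

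**Figure D5:**
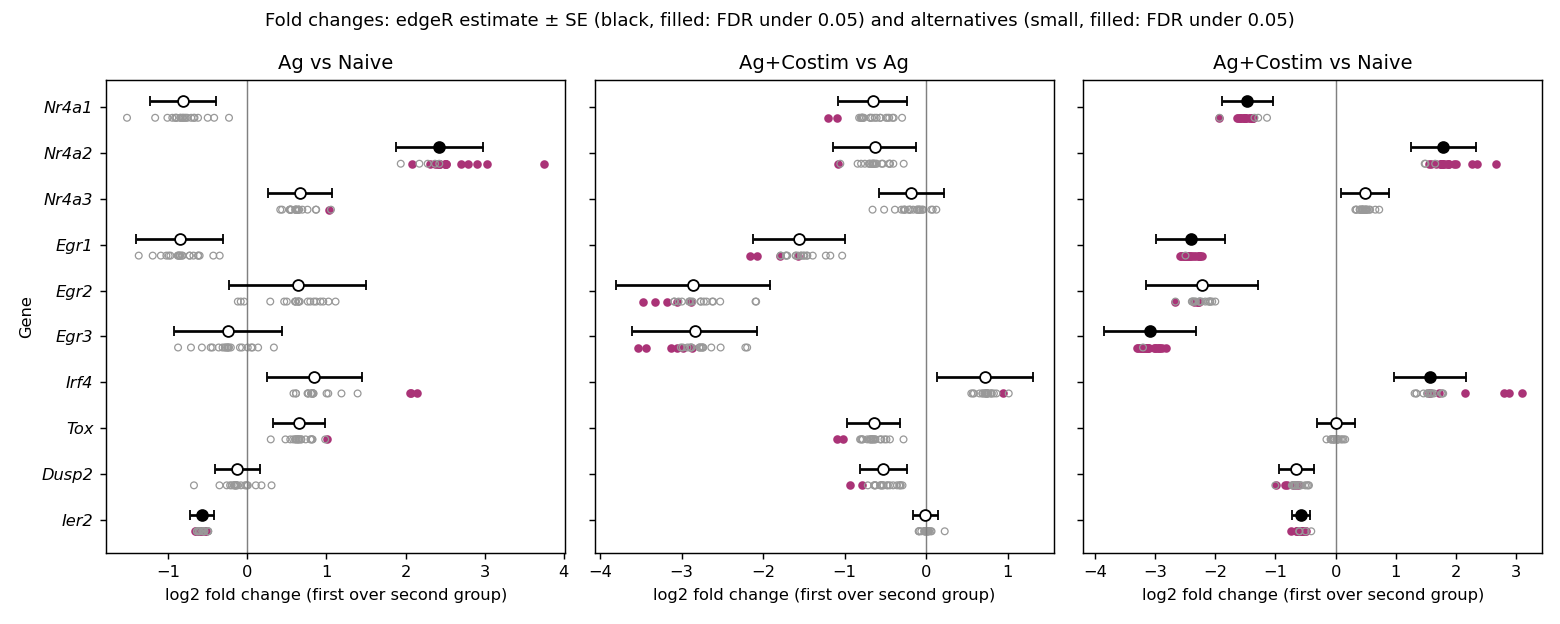
Log2 fold change of each gene in the 3 comparisons, first group over second: large points with bars are the edgeR estimate ± SE, small points the alternatives, and filled points have FDR under 0.05. Egr1 and Egr3 stayed between -3.30 and -2.23 in every alternative of Ag+Costim against Naive, and Nr4a2 between 1.48 and 2.67.

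The genes around the members were described by lists, whose counts stand beside the background above. Of 28 other immediate early and early TCR response genes tested, 1 was called higher and 4 lower in Ag than in Naive, and 4 higher and 12 lower in Ag+Costim than in Naive. Fos, a subunit of the factor AP-1, was 0.382 ± 0.30 CPM in Ag+Costim and 5.19 ± 2.23 CPM in Naive (SD, n = 5, FDR 0.0176). Cd69, an early activation antigen, measured 39.0 ± 8.86 CPM in Ag+Costim, 57.0 ± 22.8 CPM in Ag and 177 ± 77.4 CPM in Naive, and was called in both comparisons with Naive. Rgs1, a regulator of chemokine receptor signalling, rose in Ag by 1.73 (FDR 0.0106), and the transcription factor Bhlhe40 rose in Ag+Costim by 1.86 (FDR 0.0338). The list's median log2 fold change was -0.29 in Ag and -0.43 in Ag+Costim against Naive.

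Of 11 inhibitory receptor genes linked to NR4A and TOX, 5 were called higher and 0 lower in Ag than in Naive, and 6 higher and 0 lower in Ag+Costim than in Naive. Pdcd1, which encodes PD-1, was 195 ± 40.5 CPM in Ag, 196 ± 29.4 CPM in Ag+Costim and 41.9 ± 47.0 CPM in Naive. Ctla4 was 83.3 ± 33.2 CPM in Ag, 53.2 ± 15.5 CPM in Ag+Costim and 11.8 ± 15.1 CPM in Naive. The list's median against Naive was 1.47 in Ag and 1.91 in Ag+Costim. All 11 genes had a positive estimate in both. None was called between Ag+Costim and Ag.

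Of 14 genes linked to EGR2, EGR3 and anergy, 2 were called higher and 2 lower in Ag, and 2 higher and 5 lower in Ag+Costim, each against Naive. Nrn1 and Izumo1r, known from anergic and regulatory T cells, rose in Ag by 5.79 (FDR 0.0188) and 3.72 (FDR 0.0188), with an SD over Ag libraries larger than their mean (48.0 ± 56.5 and 88.0 ± 103 CPM). Socs3, a cytokine signalling inhibitor, averaged 83.4 CPM in Naive, 19.1 CPM in Ag and 13.9 CPM in Ag+Costim libraries and was called lower in both (FDR 0.0176 and 0.00297). The list's median was 0.05 in Ag and -0.05 in Ag+Costim.

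Of 16 genes linked to IRF4 and its partner BATF, 1 was called higher and 1 lower in Ag, and 7 higher and 3 lower in Ag+Costim, each against Naive. Batf itself was 148 ± 9.95 CPM in Ag+Costim, 124 ± 46.4 CPM in Ag and 63.6 ± 23.2 CPM in Naive. Bach2 and Lef1, factors of naive and memory cells, fell in Ag+Costim by 2.83 (FDR 0.00237) and by 1.92 (FDR 0.00214). Of 14 tested relatives, partners and corepressors of the members, Tox2 and Dusp4 rose in Ag+Costim over Naive by 1.59 (FDR 0.0133) and 1.72 (FDR 0.0383), among 4 called higher and 3 lower. Of the 10 heat shock and handling genes, 7 were called higher and 0 lower in Ag+Costim than in Naive, and none in Ag.

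The genes whose pattern lay nearest each member were found by the root mean square difference of centred log2(CPM + 1) over the 15 libraries, among 11341 genes. For Nr4a1 these were Pim2 (0.233), Ifi206 (0.273) and Gm18752 (0.287). For Nr4a2 they were Cd83 (0.336), Ildr1 (0.350) and Cd86 (0.374). Cd83 and Cd86 are activation markers best known from antigen presenting cells, and Cd83 was 22.8 ± 10.4 CPM in Ag, 15.8 ± 5.98 CPM in Ag+Costim and 4.54 ± 2.68 CPM in Naive. Nr4a3 lay nearest Ssh1 (0.229), Decr2 (0.247) and Zfp995 (0.257).

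Egr1 lay nearest Sesn1 (0.353), Gm14519 (0.366) and Rgs10 (0.376), Egr2 nearest Adamts6 (0.458), Tcn2 (0.521) and Inpp4b (0.534), and Egr3 nearest Ift80 (0.263), Btbd11 (0.304) and Inpp4b (0.308). Inpp4b, a lipid phosphatase gene, was thus near both Egr2 and Egr3, at 191 ± 180 CPM in Ag and 63.6 ± 15.6 CPM in Ag+Costim. Irf4 lay near Carhsp1 (0.271) and Itgb1 (0.319), and Itgb1 had an SD over Naive libraries larger than its mean (700 ± 817 CPM). Tox lay nearest Itm2c (0.201), Elk3 (0.216) and Id3 (0.232), Dusp2 nearest Rasa1 (0.224), Mcl1 (0.226) and Jund (0.234), and Ier2 near Taf7 (0.149) and B230307C23Rik (0.160). For scale, the members' own root mean square deviation from their mean ran from 0.335 (Ier2) to 1.38 (Egr2). These are descriptions over libraries that share lanes and depth, with no test.

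Transcript make-up differed in no comparison past the threshold: of 18 tests over the leading transcripts of the members with at least 20 counts, 0 passed, and the lowest adjusted p was 0.286 (exact permutation). The leading Nr4a1 transcript, 1 of 2 overlapping coding transcripts that held nearly all its counts, had 0 to 98.8% of them in Ag libraries, so the split of Nr4a1 counts is uncertain. Egr1 and Nr4a3 were assigned to 1 transcript each in all libraries, so their tests, which are among the 18, could find no difference.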

How the data were processed

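RNA-seq of sorted OT-I CD8+ T cells was analysed in 15 libraries, 5 each of Naive, Ag and Ag+Costim. The authors aligned reads with HISAT2 2.1.0 and deposited StringTie 2.1.0 estimated counts per gene and per transcript, which are whole numbers, per the labels and their processing notes. The 55536 matched entries of 81881 were named by GENCODE M21 (GRCm38). Entries that held only a number (26248, 0.0818% of counts) and 97 spike-in entries with no counts were left out. A deposited table of the sequencing core, per the file headers, gave the lane, input and percent of reads aligned. StringTie derives counts from coverage, so low values carry rounding, and intervals cover no amplification error.

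The members, gene lists and tests were chosen with earlier results of these data known. The main test was edgeR 4.0.16 quasi-likelihood (R 4.3.3, robust, filterByExpr by group, TMM scaling, all 15 libraries, 1 coefficient per group, Benjamini-Hochberg over 17366 genes, threshold FDR 0.05), checked on simulated counts. The common biological coefficient of variation was 0.431. Alternatives were DESeq2 1.42.0, limma 3.58.1 voom with quality weights, RLE or total scaling, no filter, 10 libraries only, the replicate block, lane, recorded sex and input terms, within-lane fits and leaving out libraries. Family shares used count over transcript length. Shares were compared by exact two-sided permutation tests. A level is TMM-scaled CPM. Depth was 4865952 to 25280667 counts, and 3 counts were 0.112 to 0.653 CPM. No 2 libraries agreed within counting noise. Named genes were the 10 members, at most 4 called genes with the largest fold change per list and comparison, and the 3 nearest patterns per member, of which 2 genes are not reported here.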

Additional observations from a re-analysis of the deposited data

Results flagged for a closer look

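Of 48 groups of 5 libraries examined (the CPM of 10 members and the shares of 6 in 3 groups), 3 held a library far from the other 4, where chance flags about 1 in 20 groups (2.4 here). Irf4 stood at 34.2 CPM in Naive 5, and the next Naive library was at 9.54 CPM. The Nr4a3 share of the NR4A family was 14.6% in Ag 3, and the next Ag library was at 7.66%. The Egr2 share of the EGR family was 0% in Ag 5, and the next Ag library was at 31.0%.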

How the results depend on the processing

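Of 647 values for the members under alternatives, 527 kept direction and side of the threshold, 44 fell short of it, 39 passed it and 37 turned direction. Calls in Ag against Naive (2) became 1 with no filter, 1 with the replicate block, 1 with the input term, 0 with 10 libraries, 0 with lane and 5 with voom, and ran from 0 to 3 with single libraries left out. In Ag+Costim against Ag (0) they were 6 with input, 1 without Ag 3 and Naive 5, 8 with voom and 3 with DESeq2 (0 to 3 leaving out 1). In Ag+Costim against Naive (6) they were 3 with no filter, 0 with lane, 5 within lane 3, 7 with 10 libraries, 8 with input and 8 with voom (3 to 6 leaving out 1). DESeq2 gave Irf4 no adjusted p. Same-numbered libraries share a recorded sex but did not all deviate together: the correlation was 0.42, -0.12, -0.32, 0.47 and 0.41 for numbers 1 to 5 in Ag and Naive, and ran from -0.25 to 0.17 in the other comparisons. They were not treated as pairs. The block changed no call but Ier2 in Ag against Naive (FDR 0.0521). Calls on family shares (5) were 0 with the replicate block (sign flips), whose smallest p cannot pass. They were 0 without Ag 3 and Naive 5 (exact permutation, adjusted p at least 0.0714). With fewer libraries the smallest p that Ag against Naive can give is larger, which also raises the adjusted p of other comparisons. The Nr4a1 share of each remaining Ag library was still below that of each remaining Naive library. Leaving out 1 library gave 4 to 10 calls.

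Direction turned for small values. Egr2 in Ag against Naive was -0.082 with the replicate block and -0.040 with lane (-0.12 to 0.96 leaving out 1). Egr3 there was 0.34 with input and 0.14 with voom (-0.87 to 0.066). Dusp2 there was 0.11 with input, 0.18 without Ag 3 and Naive 5, and 0.31 with voom (-0.35 to 0.0072). In Ag+Costim against Ag, Nr4a3 was 0.13 with no filter (-0.38 to 0.08). Ier2 there was 0.23 with no filter, 0.0082 with lane, 0.017 with input, 0.022 within lane 2 and 0.0028 with DESeq2 (-0.082 to 0.067). Tox in Ag+Costim against Naive was -0.027 with RLE, -0.15 with totals, -0.050 with 10 libraries, -0.031 with input, -0.084 with voom and -0.025 with DESeq2 (-0.073 to 0.13). Shares turned for Egr1 in Ag+Costim against Naive (0.025 points on raw counts, 0.318 without Ag 3 and Naive 5, -2.18 to 1.72 leaving out 1), Nr4a2 in Ag+Costim against Ag (0.081 without those 2, -3.31 to 1.53), Egr3 in Ag against Naive (-1.32 without those 2, -0.70 to 2.09) and Nr4a1 in Ag+Costim against Ag (-4.51 to 0.62). The causes were not tested. Low counts limit Egr3 in Ag+Costim and Nr4a3 throughout.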

Other observations

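Markers of cell types not described above were summed in the same way. The 8 plasma cell markers summed to 565 to 950 CPM in Naive, 589 to 1377 CPM in Ag and 553 to 831 CPM in Ag+Costim libraries. Ighm made up most of the sum in every library, so the sums do not show the course of the other markers. Of 6 tested, 2 were called higher in Ag (Jchain, Igkc) and 3 in Ag+Costim (Jchain, Igkc, Igha) than in Naive (edgeR, FDR 0.05). Ighm was called in neither. From Naive to Ag+Costim, mean Igkc went from 4.28 to 64.3 CPM and mean Ighm from 787 to 580 CPM. The 7 dendritic cell markers summed to 13.2 to 88.3 CPM in Naive and 48.1 to 97.6 CPM in Ag+Costim libraries, with 2 of 5 tested called lower. The 4 NK cell markers summed to 14.1 to 75.6 CPM in Naive and 4.22 to 14.7 CPM in Ag+Costim libraries, with 2 of 4 called lower. The 4 CD4 T cell markers stayed at or under 34.4 CPM in every library. The part of these cells in the members' levels was not tested.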
